A study of Mus musculus with 2 samples.

Results

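The genes described here encode the proteins of the cytosolic ribosome in the mouse. Members were chosen by symbol alone, as protein-coding genes whose name is Rpl or Rps followed by a number, by a number with the letter a, l, x or y, by a, or by p0, p1 or p2. The rule found 80 of 21938 protein-coding genes, of which 49 (Rpl) belong to the large subunit and 31 (Rps) to the small one. It used no measured value. It passes over ribosomal genes with other names, such as Fau, Rack1 and Rps3a1, which are set beside the members where they matter.

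Ribosomal proteins are needed in nearly equal amounts, since each enters the ribosome as a single copy, with the stalk proteins P1 and P2 as the best known exception. Their genes are transcribed in every growing cell from promoters that are rich in CpG, and the messages usually begin with a C and a run of pyrimidines, the 5′ terminal oligopyrimidine (TOP) sequence through which the growth regulator mTOR controls their translation. In people, loss of a single copy of several of these genes causes Diamond-Blackfan anaemia, a failure of red cell production, which gives the genes particular interest in a tissue that makes red cells.

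Chromatin accessibility was measured by DNase-seq, an assay in which the nuclease DNase I cuts open chromatin, in whole spleen of male B6CASTF1/J mice aged 4 days. This strain is the first generation of a cross between C57BL/6J and CAST/EiJ. The labels give 1 group of 2 biological replicates and no treatment. They number the spleens as those of different males but give the same donor entry for both, so the spread between replicates covers these 2 libraries and may be in part technical. With 1 group there is no contrast between conditions, and the genes are described across the 2 libraries and beside other promoters, by counts and medians and without a test, because genes are not replicates.

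The 2 libraries held 80323 and 88723 peaks (replicates 1 and 2), 51123 and 56521 peaks in a stricter list, and 217159 and 252901 footprints, which are short stretches inside open chromatin that are protected from the enzyme. The promoters of all 6 erythroid and all 4 B-lineage marker genes examined had a peak in both libraries, those of liver (3 genes), muscle (3) and neuron (2) had none, and of 2 genes of spleen mesenchyme Tlx1 had a weak peak (0.349 and 0.470) and Nkx2-5 none. In a whole tissue a lower signal cannot be told apart between fewer cells with an open promoter and a less open promoter in each cell. Promoter signal means the signal of the highest peak within 1 kb of any annotated start site of the gene. It is the authors' value per peak on a scale that is not stated, the libraries are treated as scaled separately, and the number of reads behind it is unknown. Over all promoters the signal of replicate 1 was 1.18 times that of replicate 2 (median), so ranks within a library are given beside the levels. A rank is the percentage of promoters with a peak in that library that lie at or below the gene.

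A set of promoters is printed to show what the libraries recorded at the level of the sequence. Each runs from 120 bases before to 10 bases after the most upstream annotated start, 5′ to 3′ on the strand of the gene, on mm10 (GRCm38). Capitals mark bases inside a footprint of both libraries. The sequences come from the C57BL/6J reference, so CAST/EiJ alleles are not shown. The genes in this paragraph were chosen because the capitals hold the letters CGCGAGA on one strand or the other, the core of the palindromic CGCG element that the protein BANP is known to bind.
Rps6, chr4:86857403-86857532, minus strand: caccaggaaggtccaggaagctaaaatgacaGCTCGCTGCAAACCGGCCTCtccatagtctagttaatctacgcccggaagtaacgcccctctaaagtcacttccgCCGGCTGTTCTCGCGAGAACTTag
Rpl26, chr11:68901446-68901575, plus strand: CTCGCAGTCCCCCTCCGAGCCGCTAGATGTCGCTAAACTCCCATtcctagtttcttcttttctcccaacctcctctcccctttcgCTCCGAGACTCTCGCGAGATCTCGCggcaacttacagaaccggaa
Rpl7a, chr2:26910644-26910773, plus strand: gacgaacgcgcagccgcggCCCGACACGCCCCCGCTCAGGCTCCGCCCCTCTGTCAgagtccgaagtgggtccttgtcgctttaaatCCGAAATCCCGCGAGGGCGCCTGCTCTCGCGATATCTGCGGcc

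In the promoters of Rps6 and Rpl26 the palindrome is complete, so the letters are read on both strands, 3 bases apart. Their capitals form blocks around it, with further blocks elsewhere in the window. In Rpl7a the letters are read on the opposite strand only, close to the start site. The window of Rpl26 is set on a start that lies upstream of the main start used for the motif search (68901583). The first match of Rpl26 lies at -26 from the start site on which the printed window is set and at -43 from the main start.

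The following promoters were chosen because capitals cover other known elements, TGACGTC of the cyclic AMP response element (CRE) in Rpl13, Rpl27a and Rps9 and CCGGAAG of the ETS factors in Rps21.
Rpl13, chr8:123102230-123102359, plus strand: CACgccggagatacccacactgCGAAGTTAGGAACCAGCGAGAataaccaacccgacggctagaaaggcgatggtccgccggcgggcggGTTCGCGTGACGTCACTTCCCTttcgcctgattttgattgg
Rpl27a, chr7:109519027-109519156, plus strand: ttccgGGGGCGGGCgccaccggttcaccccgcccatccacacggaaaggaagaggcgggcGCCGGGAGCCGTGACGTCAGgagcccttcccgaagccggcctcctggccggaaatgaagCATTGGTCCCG
Rps9, chr7:3703873-3704002, plus strand: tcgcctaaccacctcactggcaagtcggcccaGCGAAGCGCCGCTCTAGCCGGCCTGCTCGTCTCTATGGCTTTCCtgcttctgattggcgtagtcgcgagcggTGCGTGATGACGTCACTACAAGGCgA
Rps21, chr2:180257257-180257386, plus strand: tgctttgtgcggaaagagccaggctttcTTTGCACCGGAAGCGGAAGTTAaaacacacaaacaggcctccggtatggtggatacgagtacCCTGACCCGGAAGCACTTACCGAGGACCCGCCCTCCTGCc

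Rps21 carries the ETS letters in separate footprints, with the first base at -86 and at -24 from the start site used for the motif search. In Rpl13, Rpl27a and Rps9 the CRE letters lie within 50 bases of the start.

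For contrast, the windows of 2 members without a strong promoter are shown, the muscle gene Rpl3l and the testis gene Rpl10l. Neither holds a base inside a footprint of both libraries, so each is printed in lower case throughout.
Rpl3l, chr17:24727700-24727829, plus strand: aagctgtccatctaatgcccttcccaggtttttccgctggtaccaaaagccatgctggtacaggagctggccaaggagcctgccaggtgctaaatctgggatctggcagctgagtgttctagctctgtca
Rpl10l, chr12:66284392-66284521, minus strand: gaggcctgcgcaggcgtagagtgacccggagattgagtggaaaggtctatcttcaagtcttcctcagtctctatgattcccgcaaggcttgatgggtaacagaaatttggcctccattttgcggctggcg

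Nearly all ribosomal protein genes had an open promoter in the spleen. A peak of each library lay within 1 kb of a start site in 79 of 80 members (98.8%), against 60.8% of all protein-coding genes. In the stricter lists this held for 77 members (96.2%), against 55.4% of all genes. A footprint of each library was found at 79 members, against 59.6% of all genes. High shares were also found for CpG-rich promoters in general. A CpG-rich promoter is one with an observed over expected CpG ratio of at least 0.5 in 1 kb around the main start site. Of 12066 such promoters, 89.8% had a peak in both libraries, 84.4% in both stricter lists and 88.8% a footprint in both. By the same measure 79 of the 80 members were CpG-rich, with a median ratio of 0.812, against 0.571 over all genes and 0.758 over CpG-rich promoters. All 78 mitochondrial ribosomal protein genes (Mrpl and Mrps), whose products build the separate ribosome of mitochondria, also had a peak in both libraries.

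**Figure D1:**
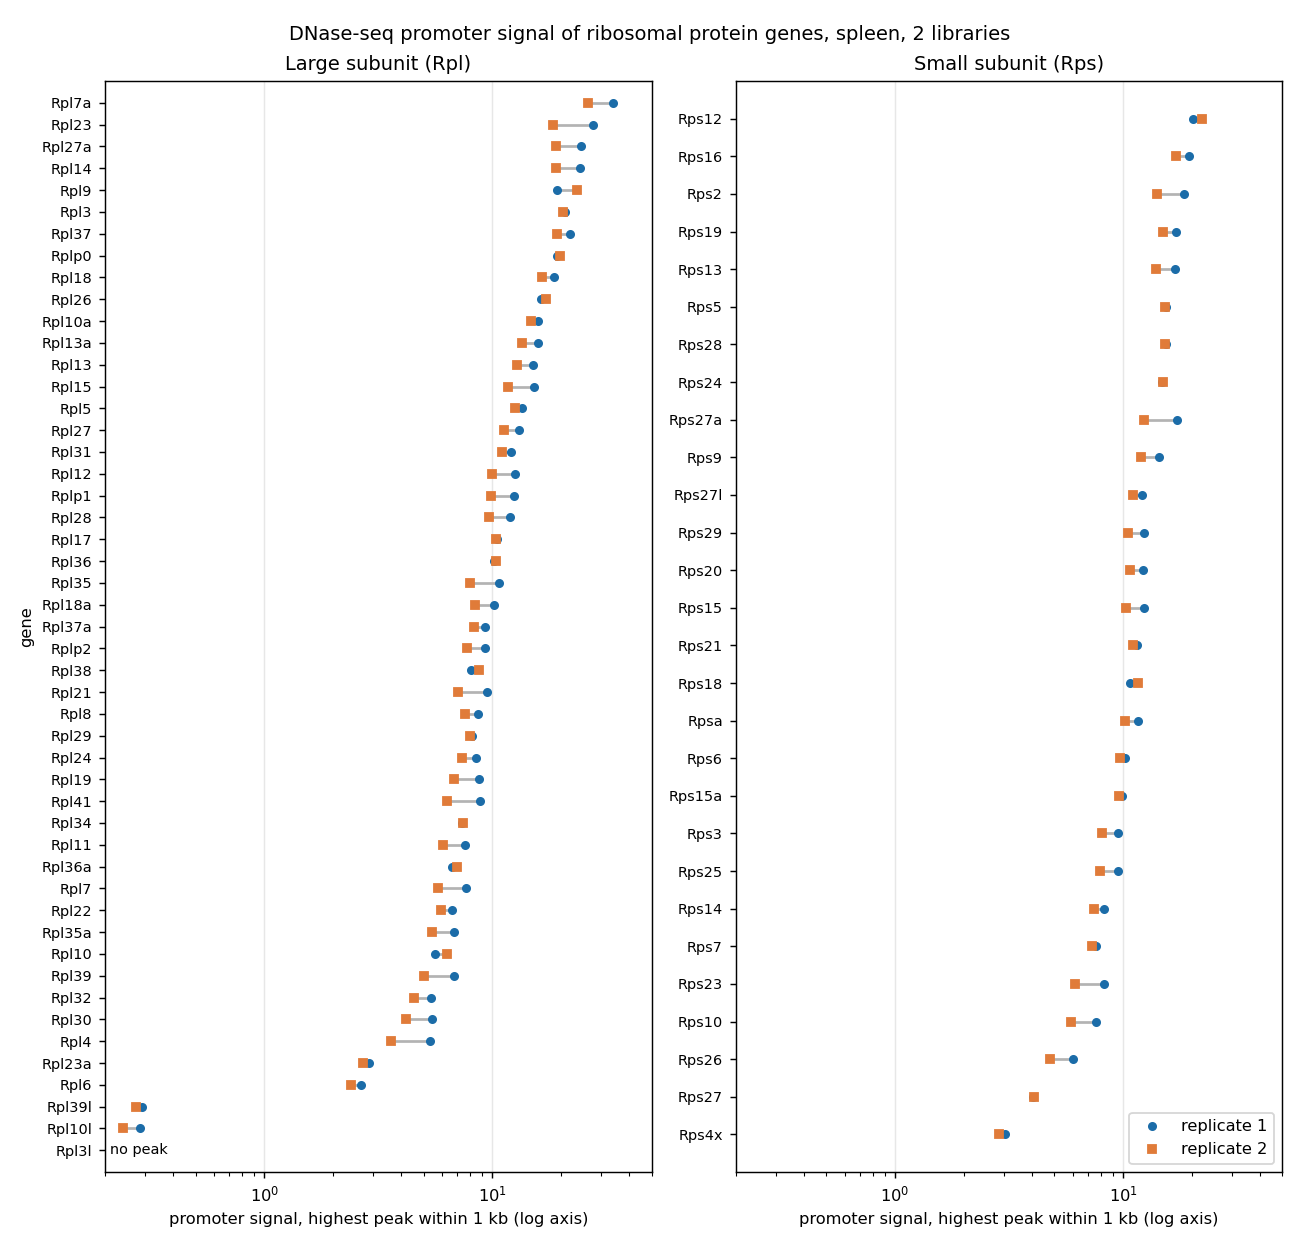
Promoter signal (horizontal log axis, the authors' scale) of ribosomal protein genes (vertical axis), large subunit on the left and small subunit on the right, with circles for replicate 1, squares for replicate 2 and a grey line joining the 2 libraries. Most members lie between 3 and 30, the paralogues Rpl10l and Rpl39l lie below 0.3, and Rpl3l has no peak.

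Among promoters with a peak in both libraries, those of ribosomal protein genes were stronger than the typical one. Their median signal was 10.7 in replicate 1 and 9.89 in replicate 2. The middle 50% ran from 7.65 to 15.4 in replicate 1 and from 6.56 to 13.9 in replicate 2. The median of all other genes with a peak in both was 6.32 and 5.20, and that of other CpG-rich promoters 7.74 and 6.32. By the mean of the 2 libraries, the median of the members was 1.80 times that of all other genes and 1.48 times that of other CpG-rich ones. The median member ranked at 70.3% of the promoters of replicate 1 and 74.7% of those of replicate 2. Of the 79 members with a peak, 67 lay above the middle of the ranking in both. So did 6610 of the 13265 other genes with a peak in both libraries, and 6174 of the 10757 other CpG-rich promoters with one. Of the 79, 44 had a signal above 10 in replicate 1 and 39 in replicate 2. A signal of at most 10 was found at 44.3% and 50.6% of the members. The same held for 61.3% and 69.9% of other CpG-rich promoters with a peak in both libraries. At the top of the ranking, 11 of the 79 (13.9%) ranked above 90% in both libraries, against 8.75% of other promoters. Mitochondrial ribosomal protein genes lay between the members and the other CpG-rich promoters, with medians of 9.01 and 7.22.

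**Figure D2:**
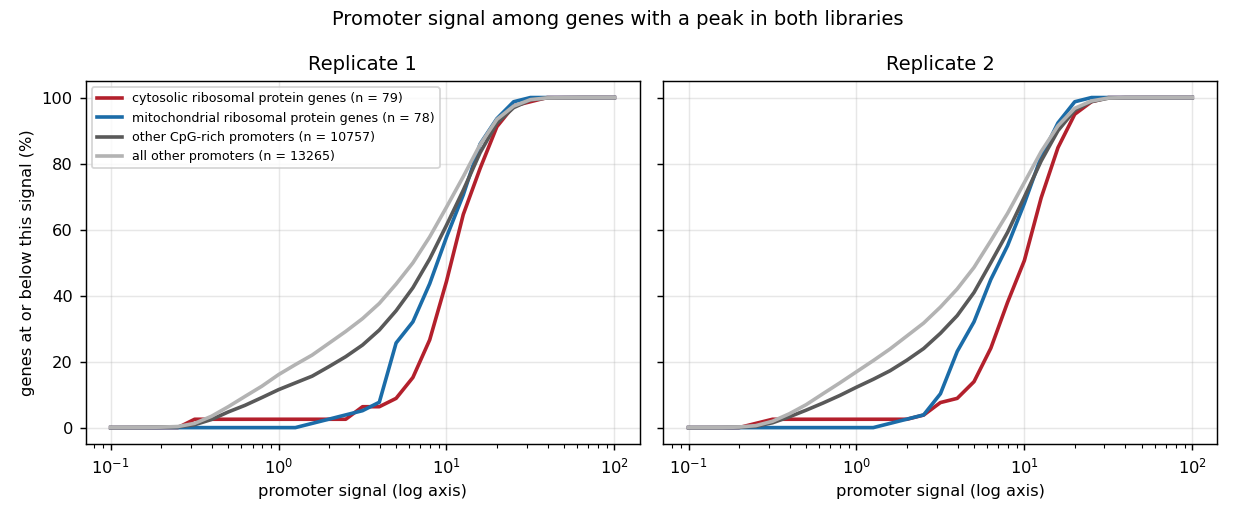
Percentage of genes (vertical axis) at or below a given promoter signal (horizontal log axis) in replicate 1 (left) and replicate 2 (right), for genes with a peak in both libraries. The curve of the cytosolic ribosomal protein genes (79 genes, red) lies to the right of those of the mitochondrial ones (78), other CpG-rich promoters and all other promoters at its middle, where medians are 10.7 and 9.89 against 7.74 and 6.32 for other CpG-rich promoters.

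The strongest promoter of the family belonged to Rpl7a, a large-subunit protein whose introns also hold small nucleolar RNAs (chromosome 2, 26910764 to 26913318). Its signal was 33.8 in replicate 1 and 26.2 in replicate 2 (30.0 ± 5.40, SD, n = 2), above 99.6% and 99.3% of promoters. Rpl7a starts 87 bases from Med22, a Mediator subunit gene that runs the other way, and the signal of such a shared promoter cannot be assigned to either gene. Rpl23, which can bind the p53 regulator MDM2, had 27.8 and 18.4 (23.1 ± 6.70) without such a neighbour. Rpl27a had 24.4 and 19.0 and Rpl14 had 24.2 and 19.0, both large-subunit proteins. These values overlap between the genes once both libraries are considered, so the order of Rpl23, Rpl27a and Rpl14 is not resolved. Rpl9 (19.3 and 23.6) and the small-subunit gene Rps12 (20.3 and 22.2) completed the 6 strongest, and these were higher in replicate 2 than in replicate 1. Rpl9 shares its promoter with Lias, the lipoic acid synthase gene, at a distance of 53 bases.

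At the lower end, among members with a peak in the stricter lists of both libraries, Rpl6 had the weakest promoter, with 2.65 and 2.41 (2.53 ± 0.168). Rpl23a, whose product sits at the exit of the peptide tunnel, had 2.87 and 2.72. Rps4x, an X-linked small-subunit gene, had 3.04 and 2.85. These genes ranked between 32.2% and 34.4% in replicate 1 and between 33.6% and 36.7% in replicate 2, below the middle of all promoters. Between the strongest and the weakest such member the signal differed 12.8-fold in replicate 1 and 10.9-fold in replicate 2. Reads that match repeated sequence can be lost in mapping, and ribosomal protein genes have many processed copies in the genome. Within 1 kb of their start sites a median of 8% of 31-base words occurred more than once in the reference, at most 32.0% (Rps2, which had 18.5 and 14.1). The values were 15.3% at Rpl6, 14.7% at Rpl23a and 1.1% at Rps4x, and their part in the low signals was not tested.

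Members that are restricted to other tissues stood apart from the rest. Rpl3l, the counterpart of Rpl3 in heart and skeletal muscle (chromosome 17, 24727820 to 24736143), had no peak, no footprint and no base with a false discovery rate under 0.05 in either library. It was also the 1 member without a CpG-rich promoter (observed over expected ratio 0.172). Rpl3 itself, which helps to form the catalytic centre of the ribosome, had 20.9 and 20.4. Rpl10l, an intronless copy of Rpl10 that is known from the testis (chromosome 12, 66283379 to 66284401), had a weak peak of 0.285 and 0.241 that is in neither stricter list, although its promoter is CpG-rich (0.722). Rpl39l, the testis counterpart of Rpl39 (chromosome 16, 10170226 to 10174911), had 0.290 and 0.274, likewise outside both stricter lists. Both ranked within the lowest 2.14% of promoters with a peak. The parent genes were far higher: Rpl10 had 5.59 and 6.31, which is 19.6 and 26.2 times Rpl10l, and Rpl39 had 6.81 and 5.02, which is 23.5 and 18.3 times Rpl39l. Repeated words made up 29.0% of the window of Rpl10l and 0.0% of that of Rpl39l, and their part in the low signals was not tested.

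The remaining paralogue went the other way. Rps27l, a close relative of Rps27 that is known as a target of p53, had 12.1 in replicate 1 and 11.1 in replicate 2. Rps27 had 4.02 and 4.05, so the paralogue was 3.02 and 2.74 times as strong. The values of the 2 genes did not overlap. The promoter of Rps27 lies 44 bases from the start of Rab13, and 12.0% of its words are repeated, against 1.7% at Rps27l.

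The members were then compared by their place in the ribosome. The P stalk, which recruits the factors that drive translation, is built from Rplp0, Rplp1 and Rplp2. Rplp0, the base of the stalk, had 19.2 and 19.9 (19.5 ± 0.50), Rplp1 had 12.5 and 9.89, and Rplp2 had 9.30 and 7.79. The order was the same in both libraries and the values did not overlap. The gene that encodes the single-copy base was therefore stronger than those of the proteins that bind to it in more than 1 copy. Rpl5 and Rpl11 form a particle with 5S ribosomal RNA that can also bind MDM2. Rpl5 had 13.5 and 12.6, and Rpl11 had 7.63 and 6.10, again without overlap. Partners in the same particle therefore had unlike signals.

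Small-subunit genes had medians of 12.1 and 10.7, and large-subunit genes 9.82 and 8.39. All 31 small-subunit genes were open in the stricter lists, as were 46 of the 49 large-subunit genes, the exceptions being the 3 tissue-restricted paralogues. Rpsa, variants of which cause congenital absence of the spleen in people, had 11.6 and 10.2 (chromosome 9, 120127689 to 120132369), close to the median of the small subunit. Rps6, the small-subunit protein that S6 kinases phosphorylate, had 10.2 and 9.70. Rpl22, which is needed for T cell development in mice, had 6.68 and 5.96. Rpl38, the gene of the Tail-short mutant mouse, had 8.09 and 8.71. Rpl24, the gene of the Belly spot and tail mutant, had 8.53 and 7.35. Rps6, Rpl22, Rpl38 and Rpl24 lay below the median of the members in both libraries.

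Of the members, 19 are genes that cause Diamond-Blackfan anaemia in people. All 19 had a peak in both stricter lists, with medians of 12.4 and 11.0, against 10.2 and 9.69 for the other members with a peak. Rps19, the gene most often affected, had 17.0 and 14.9 (chromosome 7, 24884371 to 24889806), and its highest peak lay 300 bases upstream of the nearest start in both libraries. Rpl18 (18.6 and 16.6), Rpl26 (16.4 and 17.3) and Rps28 (15.4 and 15.2) were also among the higher ones. The lowest were Rps27, described above, and Rps26 with 6.05 and 4.77. In replicate 1 the 19 genes ran from 4.02 to 18.6, inside the 2.65 to 33.8 of all members in the stricter lists. At 5 of the 19 (26.3%), Rpl18 and Rps28 among them, another protein-coding gene started within 1 kb on the opposite strand. This held for 9.84% of the other members. Signal at such promoters cannot be assigned to either gene. The other members with a peak also include the 4 X-linked genes and the testis paralogues Rpl10l and Rpl39l. All of these lay below the median of the members in both libraries, and none is among the 19. The part of these differences in the higher medians of the 19 was not tested.

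Members on the X chromosome were lower. The 4 X-linked genes, Rpl10, Rpl36a (6.67 and 7), Rpl39 and Rps4x, all lay below the median of the members in both libraries. Their medians were 6.13 and 5.66, against 11.5 and 10.2 for the 75 autosomal members with a peak, of which 33 lay below the median in both. The X-linked median was 0.535 and 0.556 of the autosomal one. Other CpG-rich promoters were also lower on the X chromosome, with medians of 3.74 and 3.24 against 7.92 and 6.48 on the autosomes, or ratios of 0.472 and 0.499. The difference between these ratios and those of the members was not tested. Males carry a single X chromosome, and this is a property of both libraries. Its part in the difference was not tested.

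**Figure D3:**
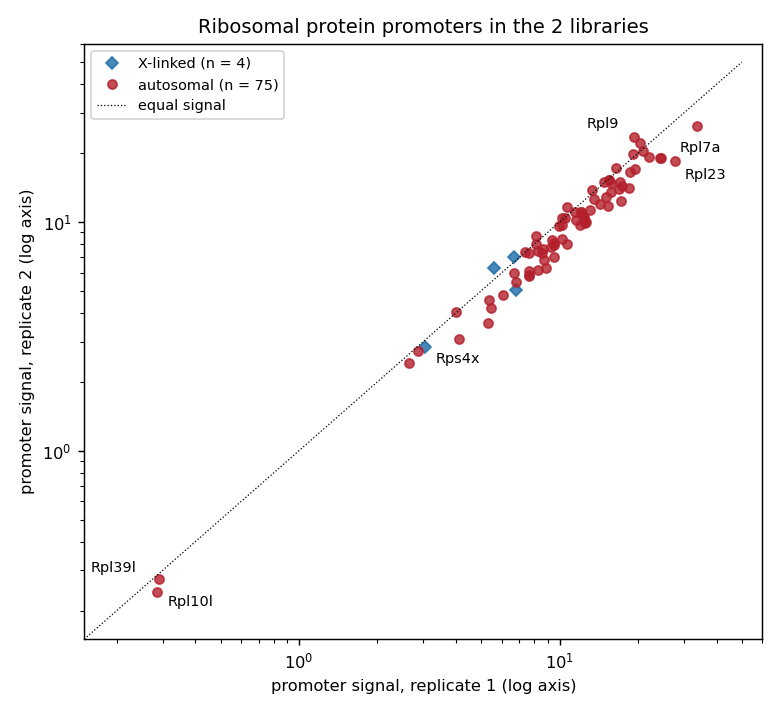
Promoter signal in replicate 1 (horizontal log axis) against replicate 2 (vertical log axis) for the 79 members with a peak, with diamonds for the 4 X-linked genes, circles for the 75 autosomal genes and a dotted line at equal signal. Most points lie below the line, as 66 of 79 members were higher in replicate 1, and the X-linked genes lie in the lower part of the cloud, with Rpl10l and Rpl39l far below it.

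The 2 libraries ranked the members alike. Across the 79 members with a peak, Spearman's rho between libraries was 0.972, against 0.989 across all genes with a peak in both, as a description of points that share their libraries. In replicate 1 the signal was higher at 66 members and lower at 13. The median ratio was 1.15 over members and 1.18 over all promoters. After centring on the median over all promoters, 31 members were higher and 48 lower in replicate 1. The SD of the centred log2 ratio was 0.18 over members and 0.26 over all genes. The largest centred log2 ratios were those of Rpl23 (0.36), Rpl4 (0.32) and, equal to 2 decimals, Rps27a and Rpl41 (0.24). The lowest were those of Rpl9 (-0.54), Rpl10 (-0.42) and Rps12 (-0.37). The coefficient of variation between the libraries had a median of 10.3% over members. It was taken before centring, so it includes the difference in level between the libraries. The means of the members (median 10.4) had an SD of 5.73 on the scale of the signal.

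The open site sat on the start of the gene. The centre of the highest peak lay within 100 bases of the nearest start site in 66 members in replicate 1 and 61 in replicate 2. Its median position was -27.0 bases in both, with negative values upstream. These distances, and the overlap that follows, were not set beside those of other promoters, so they describe the members alone. The highest peaks of both libraries overlapped in 78 of 79 members. The exception was Rps14, on chromosome 18, a gene lost in the human 5q- syndrome. It has 8 annotated start sites, and its highest peak lay at 35 in replicate 1 and at -235 in replicate 2, with signals of 8.26 and 7.49. Rpl4, which lines the peptide tunnel, had its highest peak at -454 in both libraries (5.32 and 3.61), beyond the start of the divergent gene Zwilch at -271. Rpl35 had its highest peak inside the gene, at 453 and 443. For these genes the signal used above is not that of the chromatin directly at the start.

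**Figure D4:**
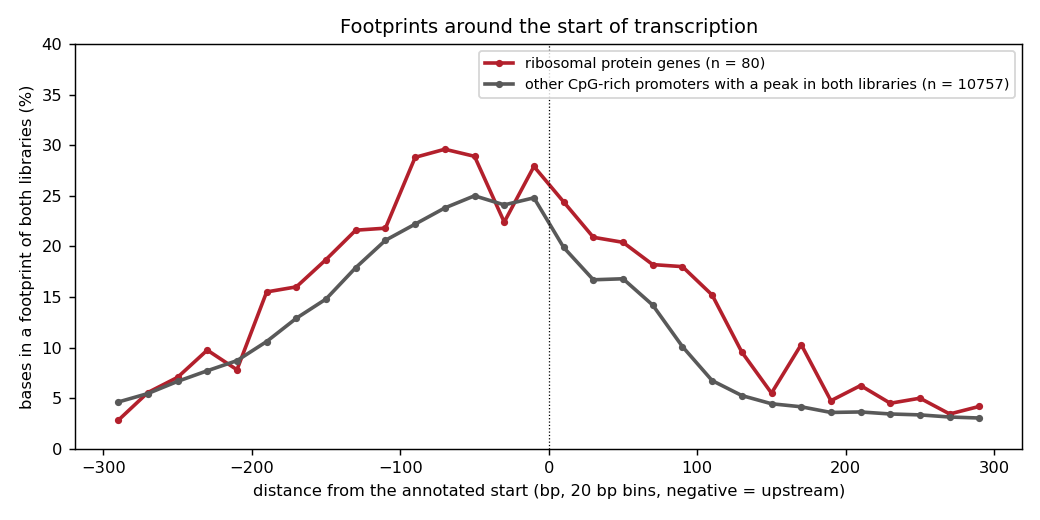
Percentage of bases inside a footprint of both libraries (vertical axis) by distance from the main annotated start in bins of 20 bases (horizontal axis), for the 80 ribosomal protein genes (red) and other CpG-rich promoters with a peak in both libraries (grey). The members reach 29.6% in the bin that begins at -80, against 23.8% at other CpG-rich promoters, and 15.2% in the bin that begins at 101, against 6.74%.

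Footprints were about as many at the members as at other open promoters. The median number within 1 kb was 9 in each library over the 79 members with a peak, and 8 in each library over all genes with a peak in both. The most were found at Rpl18 (16 and 30), Rpl7 (16 and 17), Rpl3 and Rpl10 (15 and 15 each) and Rps14 (19 and 11). Windows with several start sites are wider: Rpl18 has 8 start sites, and it held 3 peaks in replicate 1 and 11 in replicate 2. More of the sequence was open at the members. The bases with a false discovery rate of at most 0.001 numbered 831 and 895 (medians), against 682 and 707 over all genes with a peak in both and 786 and 805 over CpG-rich promoters. Rpl7 had 1619 and 1595 such bases, far above the median of the members, at a signal below their median (7.66 and 5.78). Between 100 bases upstream and the start, 22.4% to 29.6% of member bases were in a footprint of both libraries, depending on the bin. At other CpG-rich promoters this share was 22.2% to 25.0%. Between 81 and 120 bases downstream the members held a larger share (18.0% and 15.2% of bases in the 2 bins, against 10.1% and 6.74%).

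Known promoter elements were searched as fixed letters on both strands, from 250 bases before to 50 bases after the main start site. A match describes the sequence and does not show that a protein was bound. The letters CGCGAGA were present in 16 members (20%), against 3.43% of all genes and 6.27% of CpG-rich promoters with a peak in both libraries. Of their 24 matches, 16 (66.7%) lay inside a footprint of both libraries with 5 bases added on each side, against 47.0% of the matches at other open CpG-rich promoters. Matches that overlap on opposite strands of a palindrome are counted separately. Such a footprint was found in 10 members (12.5%), against 2.66% of other open CpG-rich promoters. These members include Rpl7a, Rpl10a, Rpl17, Rpl23a, Rpl26, Rps6, Rps13, Rps15a and Rps28. In those named the first base of the match lay between -43 and 3. The remaining 6, which include Rpl4, Rpl27a, Rpl28, Rps2 and Rps19, carried the letters outside such footprints.

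The median signal was higher at members with CGCGAGA than at members without it, at 15.6 and 14 against 9.54 and 8.36. Other open CpG-rich promoters showed a difference in the same direction. The 663 with the letters had medians of 10.9 and 9, and those without had 7.56 and 6.15. Rpl23a, at 2.87 and 2.72, shows that the letters in a footprint also occurred at a weak promoter. The strongest member, Rpl7a, carried them, and Rpl23, also among the 6 strongest, did not.

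The letters CCGGAAG of ETS factors were present in 25 members (31.2%), against 11.2% of all genes and 19.5% of open CpG-rich promoters. Footprints covered 30.3% of their matches, against 39.6% at other open CpG-rich promoters. AAGATGG, part of the YY1 element, was present in 10 members (12.5%), against 6.33% and 7.54%. GCATGCG of NRF1 was present in 8 (10%), against 4.68% and 7.33%, and TGACGTC of the CRE in 7 (8.75%), against 4.11% and 6.44%. The CRE lay in a footprint of both libraries in 4 members, Rpl13, Rpl27a, Rps9 and Rps29, or 5% of the members, near the 4.08% of other open CpG-rich promoters. By contrast GGGCGG, bound by SP and KLF factors, was present in 41 members (51.2%), against 45.4% of all genes and 71.1% of open CpG-rich promoters. CCAAT of NFY was present in 25 (31.2%), against 38.5% and 38.1%. CACGTG, the E-box of MYC, was present in 9 (11.2%), against 7.72% and 10.9%.

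TATAAA was present in 9 members (11.2%), against 12.6% of all genes and 5.99% of open CpG-rich promoters. AGATAA, the letters of the red cell factor GATA1, was present in 7 (8.75%), against 9.78% and 4.97%, and lay in a footprint of both libraries at 1 member, Rpl19 (1.25%), against 0.586% of other open CpG-rich promoters. In all, 45 of the 80 members (56.2%) carried at least 1 of the 10 elements inside a footprint of both libraries, against 62.7% of other open CpG-rich promoters.

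**Figure D5:**
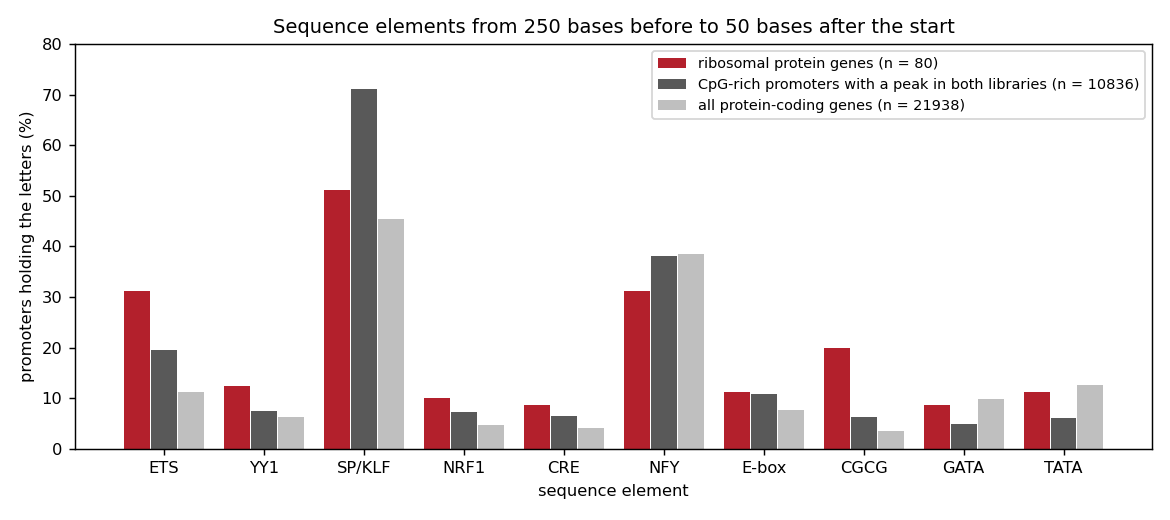
Percentage of promoters (vertical axis) that hold the letters of each sequence element (horizontal axis), for ribosomal protein genes (red), CpG-rich promoters with a peak in both libraries (dark grey) and all protein-coding genes (light grey). The CGCG element is present in 20% of the members, against 6.27% and 3.43%, and the SP/KLF element in 51.2%, against 71.1% and 45.4%.

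The TOP sequence was read at the annotated starts. The 6 longest runs are printed because they show the sequence for which these messages are known. Each window holds 10 bases before the start and 15 from it, with the run of pyrimidines that begins at the start in capitals.
Rps24, chr14:24490708-24490732, plus strand: gtgagcggtcCTCTTTTCCTCCTCT
Rpl32, chr6:115808733-115808757, minus strand: gccgccgcctCTTCCTTCTTCCTCg
Rps2, chr17:24720100-24720124, plus strand: gcgcctccctCTTCTTCTTCTTCgg
Rpl10, chrX:74270847-74270871, plus strand: gtgggagcgtCTCTTTTCCTCTggc
Rps25, chr9:44407685-44407709, plus strand: caccgggcttCCTTTTTTTCCgaca
Rps3, chr7:99483637-99483661, minus strand: cgagccacttCCTTTCCTTTCagcg

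A start on a C followed by at least 4 pyrimidines was annotated for 22 members (27.5%), against 5.14% of all genes, 5.60% of CpG-rich promoters and 6.41% of mitochondrial ribosomal protein genes. It was present in 12 of 31 small-subunit and 10 of 49 large-subunit genes. With the starts of RefSeq in place of those of GENCODE it was found in 13 of the 60 members that have an entry (21.7%), against 2.71% of all genes with one. In either annotation it was found in 30 members (37.5%), against 6.17% of all genes. The count rests on annotated starts, which differ between the 2 sources at some genes, so it describes the annotation and not the messages made in the spleen. Members with a TOP start had medians of 10 and 9.02, and members without one 12 and 10.

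Other genes of translation were also strongly open. All 15 other genes known for TOP messages had a peak in both libraries, with medians of 18.4 and 15, above those of the members (10.7 and 9.89). Pabpc1, the poly(A)-binding protein, had 23.0 in each library, and Eef1a1, which delivers aminoacyl-tRNA, had 7.77 and 7.55. All 7 ribosomal or closely related genes that the symbol rule passes over were open, with medians of 16.7 and 17.1. Fau, which encodes a ubiquitin-like protein fused to eS30, had 25.2 and 19.0. Rps3a1 had 16.7 and 20.1, and Rack1, the scaffold on the head of the small subunit, had 5.20 and 4.27.

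Many members host small nucleolar RNAs, guides of ribosomal RNA modification that are made from introns. At least 1 was annotated in 29 members (36.2%), 56 in all, against 1.18% of all genes, and the most were in Rpl4 (5). Members that host them had medians of 12.2 and 10.4, and members that do not had 10.2 and 9.65. Another protein-coding gene started within 1 kb on the opposite strand at 11 members (13.8%), against 8.78% of all genes, 14.7% of CpG-rich promoters and 33.3% of mitochondrial ribosomal protein genes. These 11 had medians of 15.3 and 11.7, and members without such a neighbour 10.2 and 9.65. The signal at these 11 cannot be assigned to either gene.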

How the data were processed

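The authors' peaks carry a deposited signal and come in 2 lists per library. For the deposited footprints the FDR (q-value) is always 0.01, and the deposited stretches of bases have an FDR (q-value) under 0.05. Per the labels, all are on mm10. The signal scale, aligner, callers and handling of CAST/EiJ reads were not given in the sources used here. Depth is unknown, so no counting interval is given. Start sites are those of protein-coding transcripts of GENCODE release 21 for mouse, except that the printed window of Rpl26 is set on a start upstream of them. Overlap means at least 1 bp, and the main start is that of the best supported transcript. Sequences were read from GRCm38, and RefSeq starts from the promoter table made for that build. Python 3.11.15, numpy 2.4.6, pandas 2.3.3, pysam 0.24.0 and samtools 1.23.1 were used, with the overlap code tested on simulated intervals. Values are given in full for the 6 strongest and 6 weakest members, those without a peak, the 3 largest log2 ratios each way, the 5 with most footprints and genes picked by role, and a few of these genes are not reported here. Members, lists and motifs were chosen with earlier results of these data known, although the symbol rule itself uses no value. Alternatives were other windows, start sites, peak lists, overlap rules and each library alone.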

Additional observations from a re-analysis of the deposited data

How the results depend on the processing

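Of the 80 members, 79 had a promoter peak in both libraries within 500 and within 2500 bp and by peak midpoint, and 75 with the most upstream start site alone, where 73 remained in the stricter lists. With 1 library left out, the counts were 79 to 79 for peaks, 77 to 77 for stricter peaks and 79 to 79 for footprints. The median number of footprints was 8.50 to 9, the median signal 9.89 to 10.7, and members with an element in a footprint 47 to 53, against 45 in both libraries and 46 where a touch of 1 bp was enough. The median number of footprints fell to 5.00, against 8.75, where a footprint had to lie whole inside a peak. The median signal was 12.0, against 10.3, where all peaks in the window were summed. The TOP count was 13, against 22, with RefSeq starts, an alternative chosen after seeing the data that covers 60 members. Start sites of every transcript type, also chosen after seeing the data, gave 79 members and a median of 10.3. No paired analysis was possible because the study has 1 group. Unknown depth limits what the weak peaks of Rpl10l and Rpl39l can show.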

Other observations

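Strong and closed members can be close neighbours. On chromosome 17 the main starts of Rps2 (18.5 and 14.1) and Rpl3l, which had no peak in either library, lie 7757 bp apart. Chromosome 7 holds 14 of the 80 members, more than any other chromosome. The share of all protein-coding genes on it is not given, so the count does not show that members gather there. Open sites were also numerous away from the promoters. Between 1 and 50 kb from a start site, the median member had 9 peaks shared by both libraries, against 3 over all genes and 5 over CpG-rich promoters. These sites were not assigned to the members, and other genes lie in the same stretches.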
